A study of Mus musculus with 11 samples.

Results

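Injury was compared with no injury within the hearts of C3H/HeJ (C3H) mice, an inbred strain whose hearts are prone to mineralise after damage, by RNA sequencing of 2 injured and 3 uninjured heart regions. The comparison takes in the 14205 genes with a normalised count of at least 10 in at least 2 of these 5 libraries, out of 15274 genes in the table of the series. All mice were 8 weeks old and the library titles name day 7. The labels give the treatment as injured or uninjured and name no agent or procedure, and no source used here gives the way of injury. Libraries of the same number came from the same C3H mouse, so that mice 1 and 2 gave both regions and mouse 3 gave the uninjured region only. The other libraries of the series were uninjured (n = 3) and injured (n = 3) heart regions of C57BL/6J (B6) mice of the same age and day, in which 14325 genes met the same minimum. They shared the estimate of the spread and served to test whether an injury effect differed between the strains.

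A heart muscle that loses cardiomyocytes is first entered by monocytes, which become macrophages that clear dead cells through scavenger and Fc receptors and digest them in lysosomes. Fibroblasts then divide and lay down collagen, proteoglycans and matricellular proteins, while surviving cardiomyocytes work the sarcomere on ATP that mitochondria make mainly from fatty acids. In C3H mice the injured tissue can mineralise, and osteopontin (Spp1), the pyrophosphate-making enzyme Enpp1 and the osteoclast enzymes are studied there as regulators of mineral. The tissue was a mixture, and fewer cells of a type and less RNA per cell cannot be told apart in it.

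The 5 libraries held 17343115 to 22138459 reads assigned to genes. Across the members, log2 values of uninjured libraries correlated with each other at 0.939 to 0.961, those of the injured pair at 0.965, and injured with uninjured at 0.83 to 0.91. The median within-group SD of a gene was 0.357 on the log2 scale among uninjured and 0.214 among injured libraries. All 15 cardiomyocyte markers listed were among the members, and they took up 11 to 12.8% of the reads in the uninjured libraries.

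Both regions of mouse 2 stood apart from those of the other mice. In 99 members both its libraries were more than 2-fold above every library of mice 1 and 3, and in 67 they were more than 2-fold below, against 23 and 14 such members for mouse 1. None of these 203 members passed the test for injury. Lcn2, an iron-siderophore binding protein of neutrophils and stressed tissue, read 58.4, 3795 and 65.7 uninjured and 106 and 1882 injured. S100a9, a calcium-binding protein of neutrophils, read 7.92, 805 and 22.2 uninjured and 12.1 and 304 injured. The acute-phase protein gene Saa3 read 283, 2057 and 62.2 uninjured and 304 and 2484 injured. All 3 were high in both regions of mouse 2. The apelin receptor Aplnr, in contrast, read 1590.2, 36.6 and 1915 uninjured and 2045 and 304 injured. Its ligand Apln read 521, 30.4 and 648 uninjured and 329 and 50.9 injured. Values are given in this order throughout, mice 1, 2 and 3 for uninjured and mice 1 and 2 for injured libraries, as normalised counts. The counts of changed genes are given below also without both regions of mouse 2.

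**Figure D1:**
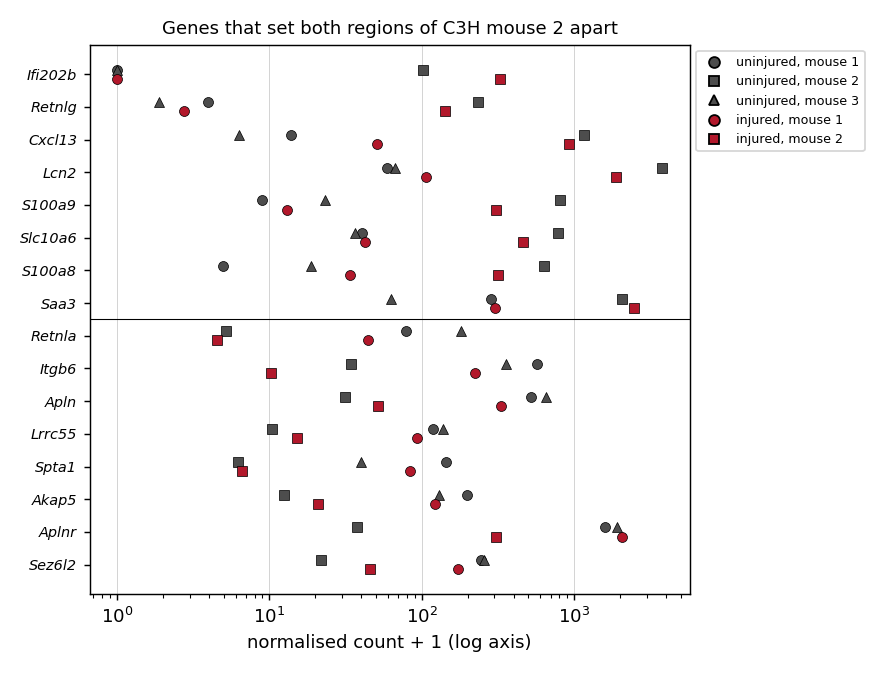
Normalised count plus 1 (log axis) of the 8 genes with the widest gap above, and the 8 below, the libraries of the other C3H mice, among genes with a mean of at least 50; grey symbols are uninjured and red symbols injured libraries, and the shape gives the mouse. Both squares of mouse 2 lie to the right of all other symbols in the upper genes and to the left of them in the lower genes.

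Levels also moved with transcript length. Members were put in 5 equal groups by their longest annotated transcript (14118 of 14205 had a length). The median log2 change was -0.53 in the shortest, -0.15, -0.01 and 0.16 in the middle groups and 0.43 in the longest. In the shortest group 271 genes rose and 793 fell, and in the longest 554 rose and 128 fell. The uninjured libraries differed among themselves in the same respect: relative to the mean of the 5 libraries, the shortest group sat at -0.05, 0.27 and 0.43 uninjured and at -0.28 and -0.36 injured. Uninjured library 1 thus lay between the injured libraries and the other uninjured libraries. The part of length in the gene results was not tested beyond a fit with the length trend of each library removed, whose values are given where they change a call.

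**Figure D2:**
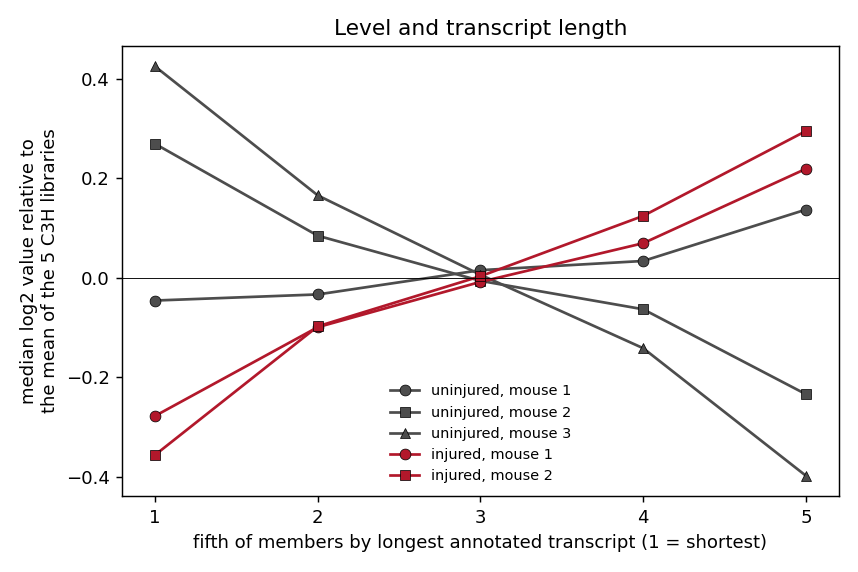
Median log2 value of the members in each of 5 equal groups by transcript length (1 = shortest), relative to the mean of the 5 C3H libraries, with grey lines for uninjured and red lines for injured libraries. The injured lines climb from -0.28 and -0.36 to 0.22 and 0.30, the uninjured lines of mice 2 and 3 fall, and that of mouse 1 climbs from -0.05 to 0.14.

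Injured C3H regions had a widely changed transcriptome at day 7. Of 14205 members 4502 passed the test (31.7%; limma, Benjamini-Hochberg adjusted p under 0.05). The adjustment ran over the 14751 genes tested in the series, of which 30.7% were called. Of the members, 2233 rose (15.7%) while 2269 fell (16%). These shares are the background for the list counts given below. The increases were larger than the decreases: 923 genes rose and 130 fell by more than 2 on the log2 scale, and 123 rose and 2 fell by more than 4. The median change over all members was 0.01. Among the members, 236 were under 10 in every uninjured library and 192 under 10 in both injured ones; these met the minimum through the other group. Groups did not overlap in 8562 members (60.3%), of which 4249 were higher (29.9%) and 4313 lower (30.4%) in the injured libraries, and 4464 of the 4502 called genes were among them. Both mice with a pair of regions moved in the direction of the call in all 4502, with a median of 1.43 in mouse 1 and 1.93 in mouse 2 over the genes that rose, and of -0.97 and -1.31 over those that fell; the same libraries made the calls, so this is a description.

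The number of calls rested on 2 injured libraries. It was 2782 without injured library 1, 1698 without injured library 2, 1366 (869 up, 497 down) without both regions of mouse 2 and 2813 without both regions of mouse 1. Of the 4502 genes, 1668 were called also without injured library 2. Quantile normalisation gave 2001 up and 2621 down, a shift of the split toward decreases, with a median change of -0.11 over all genes tested. For 3469 members the 95% interval of the change lay within 1 of 0 on the log2 scale, and for 99 within 0.5.

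**Figure D3:**
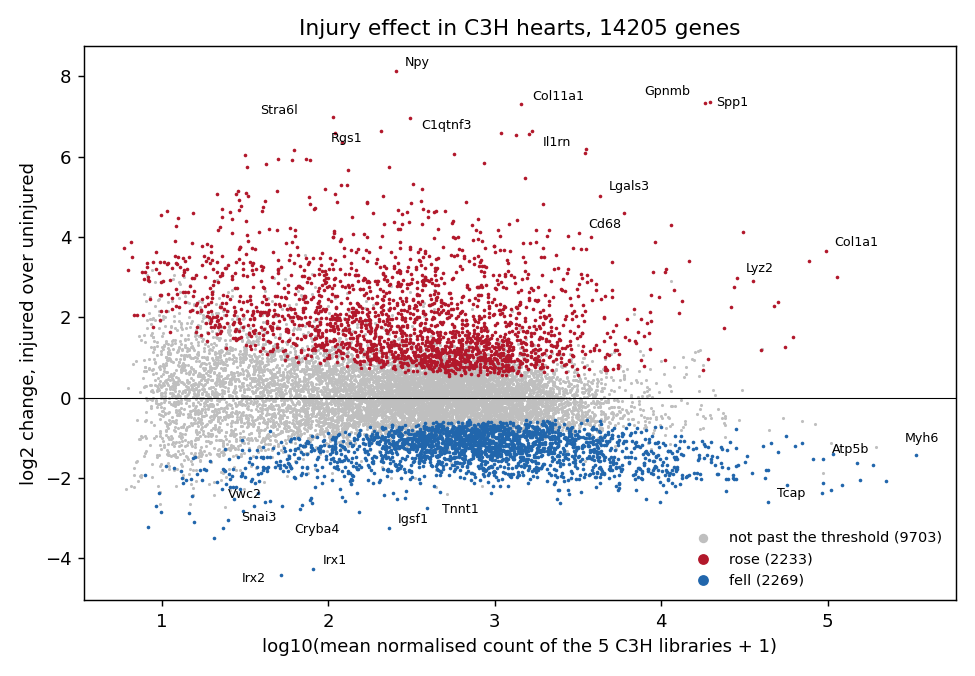
Log2 change, injured over uninjured, of 14205 members against log10 of the mean normalised count of the 5 C3H libraries plus 1; red and blue points passed the test and grey points did not. Red points reach 8.13 (Npy) and blue points -4.42 (Irx2), and the heavily expressed sarcomere and mitochondrial genes Myh6, Tcap and Atp5b lie among the blue points at the right.

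The genes that rose most, among those with a mean of at least 50, included products of macrophages and of matrix-forming cells. Among these, Npy, Rgs1, C1qtnf3 and Stra6l were under 10 in every uninjured library and met the minimum through the injured libraries only. Their rise is therefore a description. Gpnmb, a transmembrane glycoprotein of lysosome-rich macrophages and osteoclasts, read 129, 397 and 363 uninjured and 26682 and 70193 injured (log2 change 7.35, SE 0.56, adjusted p = 1.56e-05). Spp1, osteopontin, a phosphorylated adhesion protein of macrophages and bone that binds mineral, read 160.4, 377 and 356 uninjured and 38800.5 and 52487 injured (log2 change 7.34, SE 0.59, adjusted p = 2.09e-05). The groups did not overlap for either gene, and injured mouse 2 was the highest library for both. Il1rn, the receptor antagonist that blocks interleukin-1, read 31.7, 48.2 and 40.8 uninjured and 3207 and 5061 injured (log2 change 6.63, SE 0.60, adjusted p = 3.46e-05). Rgs1, a brake on G-protein signalling in leukocytes, read 4.95, 5.23 and 2.66 uninjured and 470.4 and 547 injured (log2 change 6.63, SE 0.64, adjusted p = 5.34e-05). Npy, the neuropeptide Y precursor, read 0, 9.42 and 0 uninjured and 477 and 777 injured (log2 change 8.13, SE 1.20, adjusted p = 0.000667), so that all but mouse 2 started from a value of 0.

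Col11a1, a minor fibrillar collagen chain of cartilage and fibrotic tissue, read 96, 7.33 and 12.4 uninjured and 4081 and 3024 injured (log2 change 7.31, SE 0.85, adjusted p = 0.000163). C1qtnf3, a secreted C1q and tumour necrosis factor related protein, read 2.97, 7.33 and 2.66 uninjured and 1228 and 309 injured (log2 change 6.96, SE 0.67, adjusted p = 5.15e-05). Mouse 1 was the higher of the injured pair for both, and it also had the highest uninjured value of Col11a1. Stra6l, named for its similarity to the retinol transporter Stra6, had 3 reads over the 3 uninjured and 696 over the 2 injured libraries, a ratio of 279 per depth (exact 95% interval 95.04 to 1356, counting error only). In all, 21 members had at most 3 reads over the uninjured libraries and 9 had at most 3 over the injured. Of the 21, 5 had 0 uninjured reads and are named after their values were seen. Against a floor of 3 reads over the group, the ephrin receptor Epha3 was at least 74.1-fold higher in the injured libraries, the protease gene Prss50 at least 25.6-fold, the fucosyltransferase gene Fut7 at least 22.8-fold, the lipase gene Lipn at least 14.02-fold and the coagulation factor gene F9 at least 12.8-fold. These 5 met the minimum through the injured libraries only, so the bounds are a description.

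**Figure D4:**
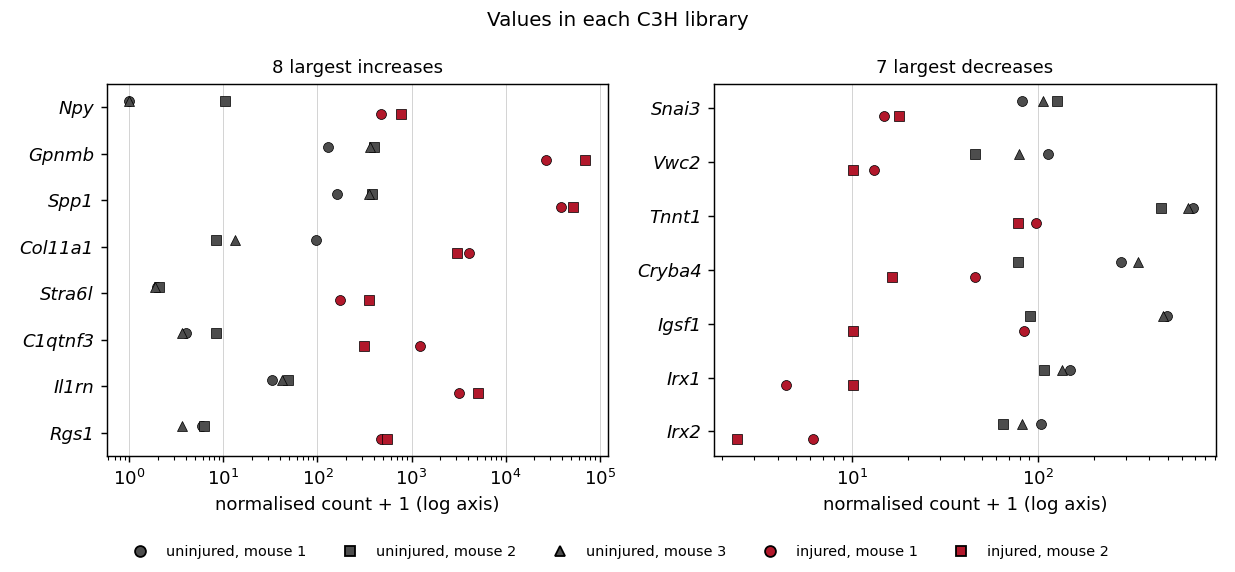
Normalised count plus 1 (log axis) in each C3H library for the called genes that changed most, 8 upward and 7 downward, taken where groups did not overlap and the mean reached 50; grey symbols are uninjured, red symbols injured, and the shape gives the mouse. The injured symbols of the upper genes lie far to the right, as for Spp1 (377 at most uninjured, 38800.5 at least injured), and all uninjured symbols of the lower genes lie to the right of the injured ones.

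The largest decreases, among genes with a mean of at least 50, included 3 transcription factors. Irx2 and Irx1 are Iroquois homeobox factors that pattern the ventricular wall and its conduction fibres. Irx2 read 104, 63.9 and 81.7 uninjured and 5.19 and 1.41 injured (log2 change -4.42, SE 0.98, adjusted p = 0.00592). Irx1 read 148, 108 and 134 uninjured and 3.46 and 9.19 injured (log2 change -4.27, SE 0.92, adjusted p = 0.00499). Tnnt1, the slow skeletal troponin T, read 682, 459.6 and 644 uninjured and 96.8 and 77.7 injured (log2 change -2.74, SE 0.37, adjusted p = 0.000391). Igsf1, a membrane protein of the immunoglobulin superfamily, read 496, 90 and 472 uninjured and 83 and 9.19 injured (log2 change -3.25, SE 0.81, adjusted p = 0.0106), with injured mouse 1 close to uninjured mouse 2. Cryba4, a beta-crystallin first known from the lens, had a change of -2.84 (SE 0.67, adjusted p = 0.00803), Vwc2, a secreted antagonist of bone morphogenetic proteins, -2.69 (SE 0.62, adjusted p = 0.00721), and Snai3, a zinc-finger repressor of the Snail family, -2.67 (SE 0.35, adjusted p = 0.000345). These 7 had no overlap, as the rule for naming them required. Calls were lost for Irx2, Igsf1, Cryba4 and Vwc2 without injured library 2 (0.0702 to 0.155), Irx2 and Vwc2 without both regions of mouse 2 (0.0638 to 0.1), Irx1 and Vwc2 without both regions of mouse 1 (0.0715 to 0.0757) and Igsf1 in a fit of the 5 C3H libraries alone (0.0591), with the adjusted p in parentheses.

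Of 14 macrophage and monocyte markers among the members 12 rose and 0 fell, with a median change of 2.79, where 15.7% of all members rose; their summed level took up 0.0807, 0.125 and 0.0657% of all reads uninjured and 0.529 and 0.887% injured. Lyz2, the lysozyme of myeloid cells, read 6196, 10017 and 6327 uninjured and 44705 and 75536 injured (log2 change 2.99, SE 0.33, adjusted p = 0.000113). The 2 markers that did not pass were Ly6c2 at -0.74 (SE 0.49, adjusted p = 0.269), a surface protein of inflammatory monocytes, and Mrc1 at 1.11 (SE 0.40, adjusted p = 0.053), the mannose receptor of resident macrophages. Without uninjured library 1, 1 marker of the list fell.

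Receptors by which phagocytes bind dead cells, microbes and antibodies rose together: 18 of 24, with a median of 2.79. Cd68, a scavenger receptor of late endosomes, read 351, 544 and 404 uninjured and 6002 and 8740.4 injured (log2 change 4.09, SE 0.26, adjusted p = 9.35e-06). Clec4e, the C-type lectin Mincle that senses dead cells and mycobacterial lipid, read 17.8, 31.4 and 13.3 uninjured and 227 and 529 injured (log2 change 4.08, SE 0.62, adjusted p = 0.000787). Both injured libraries were far above every uninjured library for either gene. The apoptotic-cell receptors Mertk (2.79) and Axl (0.76), the Fc receptors Fcgr1, Fcgr2b, Fcgr3 and Fcgr4 (2.27 to 3.99) and the lipid-sensing receptor Trem2 (3.88) were also called. Receptors tied to long-resident macrophages were not: Timd4 had a change of -0.91, Cd163 of -0.01 and Lyve1 of -0.01. Cd163 and Lyve1 were high in both regions of mouse 2, which weighs on these group changes. Within mice 1 and 2 Cd163 changed by -1.23 and -0.44 and Lyve1 by -0.24 and -0.83 on the log2 scale. Cd36, the fatty-acid and scavenger receptor that cardiomyocytes and vessels also express and the most abundant member, read 32102, 42055 and 27032 uninjured and 21401 and 23622 injured (log2 change -0.56, SE 0.31, adjusted p = 0.189). The number of the list that fell was 1 after quantile normalisation, with mouse as a fixed block and without injured library 1.

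Lysosomal enzymes and membrane proteins rose in 23 of 26, none fell, and the other 3 (Gaa, Mcoln1 and Npc1) had changes of 0.19 to 1.00. The list took up 0.724, 0.789 and 0.85% of all reads uninjured and 2.65 and 4.05% injured, and all 26 were higher in both injured libraries than in any uninjured one, against 29.9% of all members. Psap, the precursor of the saposins that help degrade sphingolipids, was the most abundant, at 34473, 30888 and 40057 uninjured and 74615 and 130028 injured (log2 change 1.50, SE 0.31, adjusted p = 0.00433). Ctss, cathepsin S, which trims the invariant chain in antigen-presenting cells, read 993, 2203 and 1016 uninjured and 19401 and 33949.8 injured (log2 change 4.30, SE 0.49, adjusted p = 0.000143). Gla, alpha-galactosidase A, read 126, 98.4 and 83.5 uninjured and 708 and 1170.2 injured (log2 change 3.16, SE 0.34, adjusted p = 0.0001). The injured library of mouse 2 was the higher for all 3. Without both regions of mouse 2, 15 of the list rose, and Psap lost its call there (adjusted p = 0.11) and without injured library 2 (0.073).

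The promoter of Gla is shown because its change was the second largest of the enzymes and its window carries the motif CACGTG, the core of sites bound by basic helix-loop-helix factors such as TFEB, more than once. RefSeq's window from 250 bases before to 50 bases after the start site lies at X:134600956-134601255 of GRCm38.p6, minus strand, and the capitals mark CACGTG, which begins 227 and 194 bases before the start site. The authors' counts were on build mm9, and the window is given for its sequence only.
Gla: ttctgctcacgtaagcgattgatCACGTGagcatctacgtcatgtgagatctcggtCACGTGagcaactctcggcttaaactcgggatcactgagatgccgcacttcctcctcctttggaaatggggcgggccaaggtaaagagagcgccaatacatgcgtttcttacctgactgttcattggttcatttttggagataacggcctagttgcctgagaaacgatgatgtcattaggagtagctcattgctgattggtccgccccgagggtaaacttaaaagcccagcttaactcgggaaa
CACGTG reads alike on both strands. It was found in 9 of 23 windows (39.1%) of the 20 list members with a window, and in 4 of 13 (30.8%) of the 11 vacuolar proton pump subunits with one, against 7.15% of all 32851 windows of this length in the table.

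The vacuolar proton pump acidifies lysosomes and, in osteoclasts, the space above bone. Of its 16 subunits and partners 5 rose and 1 fell, with a median of 0.53, where 15.7% of all members rose and 16% fell. The rises were largest in subunits of specialised cells: Atp6v0d2, the d2 subunit of osteoclasts and macrophages, read 8.91, 57.6 and 28.4 uninjured and 1644 and 3706 injured (log2 change 6.58, SE 0.78, adjusted p = 0.000184). Tcirg1, the a3 subunit, read 390.1, 439 and 326 uninjured and 2387 and 4429 injured (log2 change 3.09, SE 0.37, adjusted p = 0.000186). The common accessory subunit Atp6ap1 read 3558, 3275 and 3927 uninjured and 4657 and 5149 injured (log2 change 0.45, SE 0.23, adjusted p = 0.153), without overlap but without passing the test. Atp6v1d read 1912, 3281 and 3118 uninjured and 1287 and 1370.2 injured (log2 change -1.02, SE 0.32, adjusted p = 0.0324) and was the subunit that fell. The number that rose was 8 with mouse as a fixed block and with mouse as a random block, 3 without injured library 2 and without both regions of mouse 2 and 10 with the length trend of each library removed. The number that fell was 2 with mouse as a random block and without uninjured library 1 and 0 without injured library 1, without injured library 2, without uninjured library 2, without uninjured library 3, without both regions of mouse 1 and without both regions of mouse 2. Their median was 0.32 without injured library 2 and 0.30 without both regions of mouse 2. Atp6ap1 was called as higher after quantile normalisation (0.0101) and with the length trend of each library removed (0.0302).

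Genes of osteoclasts, the multinucleate macrophage-lineage cells that resorb bone, rose in 10 of 17 with none falling and a median of 1.90. Acp5, the tartrate-resistant acid phosphatase, read 87.1, 286 and 91.5 uninjured and 1862 and 7437 injured (log2 change 4.81, SE 0.63, adjusted p = 0.000327). Ctsk, the cathepsin that cuts collagen, read 466, 421 and 546 uninjured and 4439 and 13122 injured (log2 change 4.00, SE 0.46, adjusted p = 0.000149). In both the injured library of mouse 2 was the highest by a wide margin. Csf1r, the receptor for macrophage colony-stimulating factor and the most abundant member, read 1575, 1520.1 and 1022 uninjured and 5211 and 9953 injured (log2 change 2.42, SE 0.31, adjusted p = 0.000315). Tnfsf11, the osteoclast-inducing ligand RANKL, changed by 4.39 (SE 1.05, adjusted p = 0.00886) and its receptor Tnfrsf11a by 3.23 (SE 0.43, adjusted p = 0.000338), while the decoy receptor Tnfrsf11b did not pass at 1.90 (SE 0.75, adjusted p = 0.0746). The lysosomal chloride channel Clcn7 and its partner Ostm1 had changes of 0.64 and 0.51 and did not pass. The list counted 6 without injured library 2 and without both regions of mouse 2.

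Genes that move cholesterol and lipid out of or into cells rose in 13 of 21 and fell in 2, with a median of 1.76. Lgals3, galectin-3, a beta-galactoside-binding lectin abundant in lipid-laden macrophages, read 249.5, 316 and 337 uninjured and 7204 and 13236 injured (log2 change 5.03, SE 0.38, adjusted p = 1.56e-05). Soat1, which esterifies cholesterol for storage, read 311, 306 and 227 uninjured and 2445 and 4058 injured (log2 change 3.49, SE 0.27, adjusted p = 1.56e-05). The efflux pumps Abca1 (2.03) and Abcg1 (2.76), the droplet coat protein Plin2 (2.16) and the sterol synthesis enzyme Sqle (1.97) rose with them. Fabp4, a fatty-acid chaperone of capillary endothelium and fat, and Vldlr, a lipoprotein receptor, fell by 1.38 and 0.96 on the log2 scale. Lpl, the lipase that releases fatty acids from lipoproteins, was the most abundant, at 106482, 192617 and 102546 uninjured and 46286 and 73606 injured (log2 change -1.13, SE 0.43, adjusted p = 0.0633); it was called as lower with a minimum of 50 (0.0432), by edgeR's quasi-likelihood test (0.0374), by DESeq2 (0.00624), with mouse as a fixed block (0.0431), with mouse as a random block (0.0165) and with the length trend of each library removed (0.032), the adjusted p in parentheses. The number that rose was 8 without injured library 2 and without both regions of mouse 2. The falls numbered 1 after quantile normalisation, without B6 injured library 2, without uninjured library 1, without uninjured library 2 and without both regions of mouse 1 and 0 without injured library 1, without injured library 2, without uninjured library 3 and without both regions of mouse 2.

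Iron and heme genes rose in 3 of 14 and none fell, where 15.7% of all members rose and 16% fell. Slc11a1, the phagosomal metal exporter Nramp1, read 105, 73.3 and 63 uninjured and 1044 and 2361 injured (log2 change 4.30, SE 0.36, adjusted p = 2.64e-05). Ftl1, ferritin light chain, read 3947, 6652 and 5945 uninjured and 19625 and 27478 injured (log2 change 2.11, SE 0.33, adjusted p = 0.00091). Hmox1, the heme-degrading oxygenase, read 292, 713 and 357 uninjured and 968 and 1637 injured (log2 change 1.58, SE 0.37, adjusted p = 0.00751). All 3 were higher in both injured libraries than in any uninjured one. Ferritin heavy chain, Fth1, was the most abundant and overlapped between groups, at 39274, 75019.5 and 70613 uninjured and 34802 and 49836 injured (log2 change -0.51, SE 0.40, adjusted p = 0.358). The list's median of 0.21 was 0.48 without injured library 1, -0.05 without injured library 2, 0.06 without uninjured library 1, 0.36 without uninjured library 2, 0.45 without both regions of mouse 1, 0.04 without both regions of mouse 2 and 0.38 with the length trend of each library removed. With the length trend removed 5 rose, and the falls numbered 1 after quantile normalisation, by DESeq2, with mouse as a random block, without B6 uninjured library 1, without B6 uninjured library 3, without uninjured library 2 and with the length trend of each library removed.

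Chemokines and their receptors rose in 13 of 28 with 1 fall and a median of 1.74. Cx3cr1, the fractalkine receptor of monocyte-derived and resident macrophages, read 68.3, 41.9 and 79.9 uninjured and 1511 and 1059 injured (log2 change 4.35, SE 0.38, adjusted p = 3.04e-05), with injured mouse 1 the higher. Cxcl10, an interferon-induced attractant of T cells, read 5.94, 6.28 and 16 uninjured and 208 and 49.5 injured (log2 change 3.43, SE 0.82, adjusted p = 0.00871). The macrophage inflammatory proteins Ccl3 (4.19) and Ccl4 (3.53), their receptor Ccr1 (2.43), and the monocyte pair Ccl2 (2.27) and Ccr2 (2.79) were called too. Ccl11, eotaxin, was the member that fell, reading 68.3, 125 and 96.8 uninjured and 19.9 and 29 injured (log2 change -1.92, SE 0.46, adjusted p = 0.009). Cxcl12, the stromal attractant and most abundant member, read 7313, 3170 and 4933 uninjured and 7661 and 6782 injured (log2 change 0.57, SE 0.33, adjusted p = 0.206), with overlapping groups. The neutrophil attractants Cxcl1, Cxcl2 and Cxcl5 had changes of -0.02, 0.77 and 1.51 and did not pass. Cxcl10 lost its call without injured library 1 (0.106) and without both regions of mouse 1 (0.153), the fall of Ccl11 was lost without injured library 1 and without both regions of either mouse, and Cxcl12 was called as higher after quantile normalisation (0.0329) and without uninjured library 1 (0.0492).

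Complement genes rose in 9 of 18 with 1 fall and a median of 1.06. The receptors for the fragments C3a and C5a were among them: C3ar1 read 419.8, 418 and 292 uninjured and 4419 and 8180.1 injured (log2 change 4.01, SE 0.31, adjusted p = 1.56e-05), and C5ar1 had a change of 2.11 (SE 0.43, adjusted p = 0.00376). Cfi, the protease that inactivates C3b, read 31.7, 58.6 and 13.3 uninjured and 122 and 211 injured (log2 change 2.41, SE 0.72, adjusted p = 0.0254). C3, the central component and the most abundant, did not pass, with overlapping values of 10518, 18060 and 5953 uninjured and 15818 and 35044 injured (log2 change 1.18, SE 0.46, adjusted p = 0.0733). Cd59a, which blocks the membrane attack pore, read 1326, 1829 and 2222 uninjured and 915 and 688 injured (log2 change -1.14, SE 0.32, adjusted p = 0.0195) and was the member that fell. The number that rose was 1 without injured library 2, 4 without uninjured library 3 and 2 without both regions of mouse 2, and the fall was lost in those 3 settings. The median was 0.67 without injured library 2. Cfi lost its call without injured library 1 (0.0589), without injured library 2 (0.18), without uninjured library 3 (0.0881), without both regions of mouse 1 (0.0722) and without both regions of mouse 2 (0.118), and C3 was called as higher after quantile normalisation (0.0245), by DESeq2 (0.0408), with mouse as a random block (0.0444), without injured library 1 (0.0448) and without uninjured library 2 (0.0219).

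Antigen presentation genes rose in 10 of 16 with none falling and a median of 1.45. The class II genes H2-Aa, H2-Ab1, H2-Eb1 and H2-DMa changed by 1.56 to 1.67, their transactivator Ciita by 2.32 and the invariant chain Cd74 by 1.67. H2-DMb1, a peptide-loading chaperone of class II, read 45.5, 19.9 and 83.5 uninjured and 233 and 206 injured (log2 change 2.34, SE 0.51, adjusted p = 0.00513). Cd80, a costimulatory ligand for T cells, read 26.7, 5.23 and 7.1 uninjured and 134 and 83.4 injured (log2 change 3.25, SE 0.62, adjusted p = 0.00269). B2m, the light chain of class I molecules and most abundant member, read 6377, 9601 and 13639 uninjured and 19472 and 18406 injured (log2 change 1.01, SE 0.42, adjusted p = 0.0887), without overlap. It was called after quantile normalisation (0.00951), with mouse as a fixed block (0.00657), with mouse as a random block (0.0154), without B6 uninjured library 3 (0.0379) and with the length trend of each library removed (0.000112). The list counted 6 without injured library 1 and 4 without both regions of mouse 1 and without both regions of mouse 2, and H2-DMb1 lost its call without both regions of mouse 2 (0.0535). Class I genes of the H2 region are near-identical copies in part, and no source used here says how the counting split such reads.

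Interferon-induced genes rose in 6 of 21, where 15.7% of all members rose, none fell, and the median was 0.55. Irf7, a master factor of type I interferon induction, read 500.0, 180.1 and 733 uninjured and 1978 and 953 injured (log2 change 1.76, SE 0.60, adjusted p = 0.0434). Oas1a, an antiviral oligoadenylate synthetase, read 195, 59.7 and 195 uninjured and 551 and 341 injured (log2 change 1.71, SE 0.55, adjusted p = 0.0345). The injured library of mouse 1 was the highest for both and the uninjured library of mouse 2 the lowest. Isg15, Ifit1, Ifit2, Ifit3 and Rsad2 had changes of 0.11 to 0.92 and did not pass. The number called was 2 in a fit of the 5 C3H libraries alone and without uninjured library 2, 11 with mouse as a fixed block, 1 without injured library 1 and without both regions of mouse 1 and 3 without both regions of mouse 2. The median was 0.25 without injured library 1, 1.12 without injured library 2 and 0.19 without both regions of mouse 1. The test was missed by Irf7 and Oas1a in a fit of the 5 C3H libraries alone (0.0618 to 0.0699), Irf7 without B6 injured library 1 (0.0533), Irf7 without B6 uninjured library 2 (0.0551), Irf7 and Oas1a without injured library 1 (0.206 to 0.277), Irf7 and Oas1a without injured library 2 (0.0699 to 0.0822), Irf7 and Oas1a without uninjured library 2 (0.0949 to 0.127), Irf7 and Oas1a without both regions of mouse 1 (0.135 to 0.243) and Irf7 and Oas1a without both regions of mouse 2 (0.116 to 0.131).

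Genes of the dividing cell rose in 17 of 30, with none falling and a median of 1.63. Bub1b, a spindle-checkpoint kinase, read 57.4, 5.23 and 40.8 uninjured and 206 and 128 injured (log2 change 2.72, SE 0.72, adjusted p = 0.014). Mki67, the chromosome surface protein of cycling cells, read 349, 60.7 and 269 uninjured and 1228 and 824 injured (log2 change 2.48, SE 0.58, adjusted p = 0.00741). Uninjured mouse 2 was the lowest library for both, and the injured libraries were above all uninjured. Of 6 replicative helicase genes (Mcm2 to Mcm7), Mcm6 was called at 1.08 and the others had changes of -0.11 to 0.99. Ccnd1, the cyclin that starts the cycle and the most abundant member, read 1841, 365 and 1560.1 uninjured and 1669.8 and 632 injured (log2 change 0.02, SE 0.58, adjusted p = 0.987), with injured values inside the uninjured range. The number that rose was 10 in a fit of the 5 C3H libraries alone, 0 without injured library 1, 8 without injured library 2 and without both regions of mouse 2, 11 without uninjured library 2 and 4 without both regions of mouse 1. The median without injured library 1 was 1.34, with 1 injured library left. The falls numbered 1 with mouse as a fixed block, with mouse as a random block and with the length trend of each library removed. By limma without injured library 1, 0 of 30 passed and 13 rose at an unadjusted p under 0.05; edgeR and DESeq2 were run with all libraries, where they called 17 and 18. Calls ended for Bub1b in a fit of the 5 C3H libraries alone (0.0699), Bub1b and Mki67 without injured library 1 (0.0619 to 0.101) and Bub1b without injured library 2 (0.0552), and without uninjured library 2 the change of Bub1b was 1.72, still called.

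The promoter of Bub1b, the gene of this list with the largest change, is shown with the CCAAT box, the site of NF-Y, and the TTTGAA core of the cell cycle homology region. RefSeq's window lies at 2:118597961-118598260 of GRCm38.p6, plus strand, and the capitals mark ATTGG, the reverse strand of CCAAT, 113 bases before the start site, and TTTGAA, 41 bases after it.
Bub1b: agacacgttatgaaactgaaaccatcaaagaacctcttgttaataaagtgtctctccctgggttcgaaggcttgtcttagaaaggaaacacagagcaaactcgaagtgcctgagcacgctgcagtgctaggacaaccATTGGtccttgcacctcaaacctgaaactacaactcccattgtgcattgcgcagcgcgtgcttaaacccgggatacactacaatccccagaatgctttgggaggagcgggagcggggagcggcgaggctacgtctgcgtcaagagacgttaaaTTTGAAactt
On both strands CCAAT was in 22 of 26 windows (84.6%) of the 25 list members with a window, against 37.4% of all windows, and TTTGAA in 12 of 26 (46.2%) against 17.9%. For comparison, GAGGAA, the core bound by the myeloid factor PU.1, was in 14 of 21 windows (66.7%) of the phagocyte receptors against 28.3%, TGANTCA, the AP-1 site, in 4 of 15 (26.7%) of the matrix proteases against 7.81%, and AAGGTCA, the site of oestrogen-related receptors, in 1 of 20 (5%) of the respiratory chain genes against 4.72%. No motif searched contains the letters of another, and these shares are descriptions of the windows.

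Collagen genes rose in 17 of 22, none fell, and the median was 2.53. The list took up 1.71, 0.184 and 0.526% of all reads uninjured and 5.75 and 4.11% injured, so that uninjured mouse 1 held more collagen reads than the other uninjured hearts. Col1a1 and Col3a1 are the main fibrillar chains of scar. Col1a1 read 79234, 3346 and 13753 uninjured and 225512 and 165107 injured (log2 change 3.65, SE 0.94, adjusted p = 0.0124). Col3a1 read 100456, 7115 and 26936 uninjured and 249675 and 185054 injured (log2 change 3.00, SE 0.81, adjusted p = 0.0158). Col12a1, a chain that decorates fibrils under tension, read 205, 7.33 and 18.6 uninjured and 2959 and 1137 injured (log2 change 5.83, SE 1.01, adjusted p = 0.00166). For all 3, uninjured mouse 1 was the highest uninjured and injured mouse 1 the highest of all libraries. Of the basement membrane chains Col4a5 rose by 0.81 on the log2 scale. Col4a1 and Col4a2 had changes of 0.82 and 0.76 and Col4a3 and Col4a4 of -1.08 and -1.13, none of which passed. Calls were lost for Col1a1 and Col3a1 in a fit of the 5 C3H libraries alone (0.0585 to 0.0669), Col1a1 and Col3a1 without injured library 1 (0.0734 to 0.0905), Col1a1 and Col3a1 without injured library 2 (0.0616 to 0.0709) and Col1a1 and Col3a1 without both regions of mouse 2 (0.0783 to 0.0884). The list's rises counted 9 in a fit of the 5 C3H libraries alone and without injured library 2, 6 without injured library 1 and 10 without both regions of mouse 2. Its falls numbered 1 with mouse as a fixed block and without injured library 1.

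Matricellular proteins, which signal between matrix and cells, and elastic fibre proteins rose in 20 of 26, with none falling and a median of 2.39. Tnn, tenascin-N of developing bone, read 239.6, 12.6 and 11.5 uninjured and 2909 and 3565 injured (log2 change 6.55, SE 0.99, adjusted p = 0.000757). Comp, a pentameric thrombospondin of cartilage and tendon, read 41.6, 36.6 and 16.9 uninjured and 827 and 457 injured (log2 change 4.33, SE 0.77, adjusted p = 0.00186). Sparc, the collagen-binding osteonectin and the most abundant, read 38199.9, 5983 and 22966 uninjured and 103484 and 68254 injured (log2 change 2.27, SE 0.63, adjusted p = 0.0178). Tnc (4.33), Fn1 (4.12), Wisp1 (3.93), Thbs1 (3.73) and Postn (3.41) were called as well, whereas the early-response gene Cyr61 had a change of 0.05 and tenascin-X, Tnxb, of -0.47. Without injured library 1, 11 of the list rose, and without uninjured library 2, 1 fell. Sparc lost its call in a fit of the 5 C3H libraries alone (0.0647), without injured library 1 (0.116), without injured library 2 (0.0623) and without both regions of mouse 2 (0.0645); without uninjured library 2 its change was 1.50.

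Proteoglycans and hyaluronan genes split, with 10 of 20 higher, 1 lower and a median of 1.23. Acan, aggrecan, the large proteoglycan of cartilage, read 0.99, 3.14 and 0 uninjured and 199.8 and 104 injured (log2 change 6.17, SE 0.99, adjusted p = 0.00108). It was under 10 in every uninjured library and met the minimum through the injured libraries only. Its rise is therefore a description. Fmod, fibromodulin, which regulates fibril thickness in tendon, read 58.4, 20.9 and 61.3 uninjured and 2621 and 599 injured (log2 change 4.86, SE 0.60, adjusted p = 0.000237), the injured library of mouse 1 being far above that of mouse 2. Bgn, biglycan and the most abundant, read 14014, 6122 and 10993 uninjured and 80713 and 65584 injured (log2 change 2.89, SE 0.42, adjusted p = 0.000629). Dcn, decorin, an abundant product of resident fibroblasts, had a change of 0.20 (SE 0.35, adjusted p = 0.695), and the cell-surface glypican Gpc1, at 17006, 9728 and 13031 uninjured and 6572 and 5299 injured (log2 change -1.13, SE 0.34, adjusted p = 0.0262), was the member that fell. The fall of Gpc1 was lost after quantile normalisation, without injured library 1, without injured library 2, without uninjured library 1, without uninjured library 3, without both regions of mouse 1 and without both regions of mouse 2.

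Enzymes that cut matrix and their inhibitors rose in 17 of 23, none fell, and the median was 2.29. Mmp12, the macrophage elastase, read 39.6, 158 and 260.2 uninjured and 8783 and 8504 injured (log2 change 6.18, SE 0.80, adjusted p = 0.000318). Adam8, a membrane-bound metalloprotease of leukocytes, read 81.2, 127 and 35.5 uninjured and 1895 and 5463 injured (log2 change 5.47, SE 0.54, adjusted p = 5.77e-05). Timp2, an inhibitor that also activates Mmp2 and the most abundant member, read 5248, 3863 and 5028 uninjured and 14004 and 14261 injured (log2 change 1.60, SE 0.25, adjusted p = 0.000828). The injured libraries were close to each other for Mmp12 and Timp2, while mouse 2 was the higher for Adam8. The collagenase Mmp13 (4.21), the gelatinases Mmp9 (3.63) and Mmp2 (1.96) and the plasminogen activator Plau (3.34) with its receptor Plaur (2.28) rose, while Timp3 and Timp4, inhibitors of the healthy heart, had changes of 0.44 and -1.28 that did not pass. Without both regions of mouse 2, 11 rose, and with mouse as a fixed block 1 fell.

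Integrins, the paired receptors for matrix and for cells, rose in 14 of 24 and fell in 1, with a median of 1.56. The leukocyte chains led: Itgax read 22.8, 48.2 and 54.2 uninjured and 2765 and 5132 injured (log2 change 6.55, SE 0.40, adjusted p = 9.35e-06). Itgad, a related alpha chain of macrophages, read 3.96, 18.8 and 2.66 uninjured and 137 and 245 injured (log2 change 4.69, SE 0.93, adjusted p = 0.00327). Their partner Itgb2 changed by 3.70. Itgb3 (3.20) and Itgav (1.77), which pair into the receptor for osteopontin and vitronectin, rose as well, and so did the collagen receptor chain Itga11 of fibroblasts (2.45). Itga7, the laminin receptor of muscle, read 4835, 2274 and 4339 uninjured and 2217 and 1422 injured (log2 change -1.03, SE 0.30, adjusted p = 0.0239) and fell. Itgb1, the common beta chain and the most abundant, read 13690.2, 10148 and 11295 uninjured and 17742 and 15388 injured (log2 change 0.51, SE 0.24, adjusted p = 0.133) and was called after quantile normalisation (0.0107). Without both regions of mouse 2, 9 rose, and the falls numbered 0 in a fit of the 5 C3H libraries alone, without injured library 2, without uninjured library 1 and without uninjured library 3 and 2 with mouse as a fixed block, without injured library 1 and without uninjured library 2.

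TGF-beta and BMP genes rose in 13 of 26 and fell in 2, with a median of 1.19. Of the ligands, Tgfb1 (1.10), Tgfb3 (1.82), the activin chains Inhba (3.35) and Inhbb (1.96) and Gdf6 were called. Gdf6, a growth factor of joints and tendons, read 67.3, 10.5 and 13.3 uninjured and 194 and 217 injured (log2 change 3.20, SE 0.63, adjusted p = 0.00307). Ltbp2, a latent-complex and microfibril protein, had the largest change, at 368, 64.9 and 71 uninjured and 10362 and 6557 injured (log2 change 6.10, SE 0.74, adjusted p = 0.000203). Fstl1, a secreted follistatin-like glycoprotein and the most abundant member, read 7554, 1382 and 4102 uninjured and 29634 and 16704 injured (log2 change 2.67, SE 0.59, adjusted p = 0.00585). The receptors Tgfbr1 (2.30), Tgfbr2 (1.29) and Bmpr1b (2.54) rose. Bmp4 and the inhibitory Smad6, a target of BMP signalling, fell. Bmp4 read 300.02, 399.9 and 313 uninjured and 216 and 143 injured (log2 change -0.92, SE 0.27, adjusted p = 0.0239). Smad6 read 459, 367 and 415 uninjured and 247 and 186 injured (log2 change -0.94, SE 0.23, adjusted p = 0.0106). The number that rose was 8 without injured library 1 and without injured library 2 and 6 without both regions of mouse 2 and the number that fell was 1 in a fit of the 5 C3H libraries alone, without uninjured library 2 and with the length trend of each library removed and 0 without injured library 2 and without both regions of mouse 2. The call was lost by Fstl1 without injured library 1 (0.0579) and Gdf6 without both regions of mouse 2 (0.064).

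Wnt genes rose in 6 of 23 and fell in 1, with a median of 0.44, where 15.7% of all members rose and 16% fell. Sfrp2, a secreted frizzled-related protein, read 381, 51.3 and 118 uninjured and 1945 and 1015 injured (log2 change 3.40, SE 0.70, adjusted p = 0.00394). Dkk3, a dickkopf family member, read 519, 284 and 183 uninjured and 1921 and 2073 injured (log2 change 2.73, SE 0.43, adjusted p = 0.000917). Dkk2 (4.10), Sfrp1 (2.63), the receptor Fzd1 (2.19) and Frzb (1.35) were the others that rose. Wif1, which binds and blocks Wnt ligands, read 234, 151 and 178 uninjured and 29.4 and 30.4 injured (log2 change -2.58, SE 0.71, adjusted p = 0.0166). None of the 7 Wnt ligands among the members passed (-0.71 to 0.85), nor did the target Axin2 at -0.64 (SE 0.39, adjusted p = 0.234). Lrp6, the coreceptor and the most abundant, read 2271, 1770.3 and 1806 uninjured and 1967 and 1989.9 injured (log2 change 0.03, SE 0.31, adjusted p = 0.949) and was called as lower, at -0.48 (adjusted p = 0.0377), with the length trend of each library removed. The median was 0.23 with mouse as a fixed block and without uninjured library 3, 0.28 without injured library 1 and 0.66 without both regions of mouse 2. The falls numbered 2 after quantile normalisation, by DESeq2, with mouse as a random block and with the length trend of each library removed and 0 without injured library 1, without injured library 2, without both regions of mouse 1 and without both regions of mouse 2.

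Skeletal transcription factors and bone matrix genes rose in 7 of 15 members and fell in 1, of 26 genes listed. Besides Spp1, the factor Runx1 of blood and cartilage read 127, 72.2 and 58.6 uninjured and 1442 and 1167 injured (log2 change 3.98, SE 0.34, adjusted p = 2.64e-05). Runx2, the osteoblast factor, read 53.5, 37.7 and 37.3 uninjured and 254 and 281 injured (log2 change 2.63, SE 0.29, adjusted p = 0.000114), and Runx3 changed by 3.28 (SE 0.50, adjusted p = 0.000793). Sox9, the cartilage factor, read 184, 19.9 and 108 uninjured and 683 and 180.2 injured (log2 change 2.23, SE 0.76, adjusted p = 0.0435), and injured mouse 2 lay just under uninjured mouse 1, so that the groups overlapped. Alpl, the alkaline phosphatase that frees phosphate for mineral, fell, at 973, 548 and 812 uninjured and 471 and 271 injured (log2 change -1.08, SE 0.30, adjusted p = 0.0178). The other 11 listed genes stood below the minimum or were not analysed here. Sox9 lost its call under 12 alternatives, among them the removal of injured library 1 (1.27, adjusted p = 0.345) and of uninjured library 2 (1.31, 0.096). Without injured library 1, 4 of the list rose, and the fall was 0 in a fit of the 5 C3H libraries alone, without injured library 2, without uninjured library 3 and without both regions of mouse 2 and 2 without both regions of mouse 1 and with the length trend of each library removed.

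Genes that hold mineral back or handle phosphate rose in 6 of 18 and fell in 2, against 15.7% and 16% of all members. Enpp1, which makes pyrophosphate, the main inhibitor of mineral growth, outside cells, read 494, 223 and 292 uninjured and 3058 and 1502 injured (log2 change 2.75, SE 0.38, adjusted p = 0.000451). Vdr, the vitamin D receptor, read 22.8, 13.6 and 24 uninjured and 125 and 149.81 injured (log2 change 2.74, SE 0.46, adjusted p = 0.00142), and Fam20c, the kinase of secreted mineral-binding proteins, changed by 1.95 (SE 0.34, adjusted p = 0.00178). The pyrophosphate exporter Ank and the phosphate importer Slc20a2 fell. Ank read 5008, 4865 and 5765 uninjured and 3378 and 2470.4 injured (log2 change -0.85, SE 0.24, adjusted p = 0.0188). Slc20a2 read 4459, 4935 and 5085 uninjured and 2341 and 2432 injured (log2 change -1.01, SE 0.25, adjusted p = 0.00977), while the other importer Slc20a1 rose by 1.34 on the log2 scale. Mgp, matrix Gla protein and the most abundant, read 4840.0, 7286 and 8479.8 uninjured and 9905 and 12202 injured (log2 change 0.72, SE 0.39, adjusted p = 0.187), without overlap, and was called after quantile normalisation (0.0218), with mouse as a fixed block (0.0242) and with the length trend of each library removed (0.000496). The falls numbered 1 without injured library 1, without uninjured library 3 and without both regions of mouse 1 and 0 without injured library 2 and without both regions of mouse 2.

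Cardiomyocyte genes fell. Of 15 markers 13 fell and 0 rose, with a median of -1.96, where 16% of all members fell, and the list went from 11 to 12.8% of reads to 4.79 and 4.25%. Of 25 sarcomere and Z-disc genes 19 fell and 0 rose, with a median of -1.26, and their share was 13, 12.2 and 13.4% of all reads uninjured and 5.53 and 5.34% injured. Tcap, the titin cap, read 58687, 66860 and 71698 uninjured and 9726 and 11914 injured (log2 change -2.61, SE 0.38, adjusted p = 0.000578). Tnni3, cardiac troponin I, read 106847, 137255 and 165779 uninjured and 27593 and 24527 injured (log2 change -2.37, SE 0.44, adjusted p = 0.00225). Both injured libraries lay far under every uninjured one. Myh6, the fast cardiac myosin heavy chain and the most abundant gene of the list, read 593019, 373939 and 398943 uninjured and 149911 and 181899 injured (log2 change -1.43, SE 0.45, adjusted p = 0.0307). Its slow counterpart Myh7 read 95659, 137544 and 60994 uninjured and 40689.9 and 85082 injured (log2 change -0.66, SE 0.46, adjusted p = 0.293), with overlap. The giant proteins Ttn (-0.58) and Nebl (0.06) and the stress-linked Xirp2 (0.59) did not pass. The 13 members with the shorter transcripts had a median of -1.90 (12 called), and the 12 with the longer ones -1.03 (7 called).

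These counts moved with the scaling and with single libraries. The median of the 25 sarcomere genes was -0.68 after quantile normalisation. Their falls numbered 10 after quantile normalisation and without both regions of mouse 2, 12 without injured library 1 and 11 without injured library 2 and without both regions of mouse 1, and those of the 15 markers 8 after quantile normalisation and 6 without injured library 2 and without both regions of mouse 2. Myh6 had a change of -0.36 after quantile normalisation, and its call was lost after quantile normalisation (0.529), in a fit of the 5 C3H libraries alone (0.16), with mouse as a fixed block (0.055), without B6 injured library 2 (0.052), without injured library 1 (0.154), without injured library 2 (0.105), without uninjured library 1 (0.0649), without uninjured library 3 (0.0575), without both regions of mouse 1 (0.225) and without both regions of mouse 2 (0.0898). Myh7 was called as lower with mouse as a fixed block (0.0457) and with the length trend of each library removed (0.0377).

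Calcium handling and ion channel genes fell in 14 of 25, with none rising and a median of -1.05. Kcnip2, the partner of the transient outward potassium channel, read 4435, 4487 and 5803 uninjured and 1467 and 1032 injured (log2 change -1.98, SE 0.24, adjusted p = 0.000212). Trdn, triadin of the calcium release complex, read 5169.7, 4542 and 4319.8 uninjured and 1762 and 1232 injured (log2 change -1.66, SE 0.28, adjusted p = 0.00151). Phospholamban (Pln, -1.41), junctophilin-2 (Jph2, -1.57) and calsequestrin-2 (Casq2, -1.33) also fell. Atp2a2, the calcium pump of the sarcoplasmic reticulum and the most abundant, read 342076, 181053 and 246120 uninjured and 126323 and 88018 injured (log2 change -1.23, SE 0.45, adjusted p = 0.0574) without overlap. Long transcripts such as the release channel Ryr2 (-0.39) and the calcium channel Cacna1c (-0.51) did not pass. The number that fell was 6 without injured library 2, 7 without both regions of mouse 2 and 22 with the length trend of each library removed; Atp2a2 was called with a minimum of 50 (0.033), by edgeR's quasi-likelihood test (0.026), by DESeq2 (0.00147), with mouse as a random block (0.0171), without uninjured library 2 (0.0373) and with the length trend of each library removed (0.00552).

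Cardiac transcription factors fell in 12 of 20, with none rising and a median of -0.97. All 5 Iroquois factors measured fell, from Irx4 (-1.49) to Irx2 (-4.42), and so did Nkx2-5 (-1.96), Hand2 (-1.70), Tbx5 (-1.31) and Gata4 (-0.98). Hopx, a homeodomain-only protein without DNA binding and the most abundant, read 6724, 10763 and 13832 uninjured and 2118 and 1959 injured (log2 change -2.30, SE 0.33, adjusted p = 0.000599). Mef2a, Mef2c, Mef2d, Tbx20 and Myocd had changes of -0.27 to 0.37 and did not pass. The list counted 6 without injured library 2 and without both regions of mouse 1 and 7 without both regions of mouse 2.

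Cardiac stress genes showed little common direction: 1 of 15 rose, 2 fell and the median was -0.40. The shares of all members that rose and fell were 15.7% and 16%. Atf3, a stress-induced transcription factor, read 90.1, 168 and 141 uninjured and 1313 and 1570.2 injured (log2 change 3.47, SE 0.30, adjusted p = 2.97e-05). Npr3, the clearance receptor of natriuretic peptides, read 597, 529.7 and 186 uninjured and 105 and 112 injured (log2 change -1.84, SE 0.45, adjusted p = 0.00954). The small heat shock protein Hspb1 read 2557, 3543 and 4341 uninjured and 1593 and 1663 injured (log2 change -1.06, SE 0.30, adjusted p = 0.0194). Nppa, the atrial natriuretic peptide, read 10416, 69974 and 16226 uninjured and 52736 and 51908 injured (log2 change 1.20, SE 0.72, adjusted p = 0.226): uninjured mouse 2 was above both injured libraries. Ankrd1, a titin-bound stretch sensor and the most abundant, read 32389, 70585 and 60095 uninjured and 31180.5 and 28258 injured (log2 change -0.80, SE 0.36, adjusted p = 0.11). Nppa was called as higher without uninjured library 2 (0.0234) and with the length trend of each library removed (0.0365) and Ankrd1 as lower by DESeq2 (0.0243) and without uninjured library 1 (0.0212). Npr3 lost its call without injured library 1 (0.0551), without injured library 2 (0.0599), without both regions of mouse 1 (0.101) and without both regions of mouse 2 (0.117). The number that rose was 3 without uninjured library 2 and 2 without both regions of mouse 2 and with the length trend of each library removed, and the number that fell was 4 with mouse as a random block, 1 without injured library 1, without uninjured library 3, without both regions of mouse 1 and with the length trend of each library removed and 0 without injured library 2 and without both regions of mouse 2. The list's median was -0.68 without both regions of mouse 1 and -0.11 with the length trend of each library removed.

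**Figure D5:**
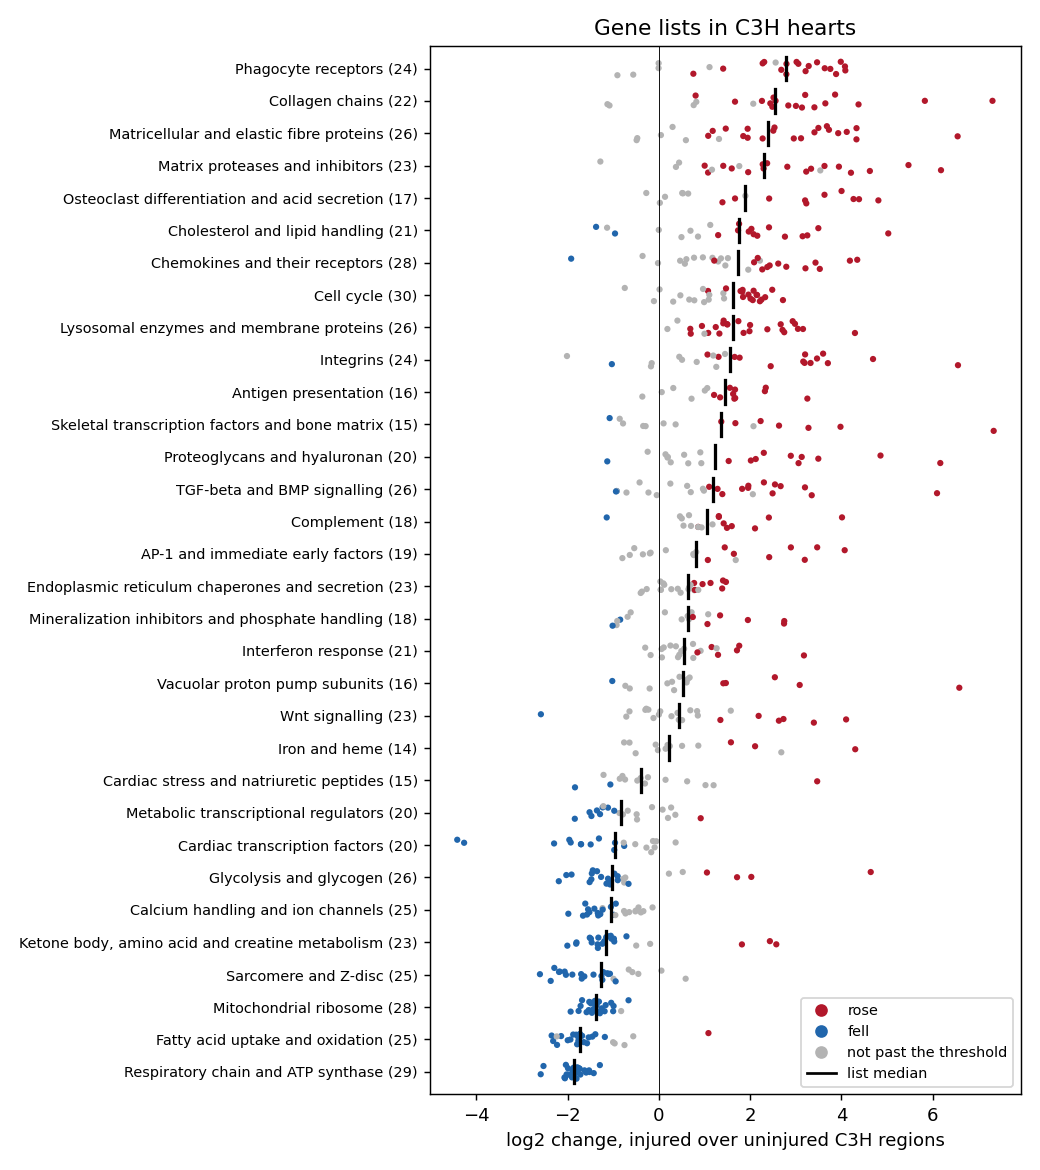
Log2 change, injured over uninjured, of each member of the 32 pathway lists (number of members in parentheses), with red for genes that rose, blue for genes that fell, grey for genes that did not pass, and a black bar at the list median. Medians run from 2.79 for phagocyte receptors to -1.87 for the respiratory chain, whose 29 members are all blue.

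All 29 nuclear genes of the respiratory chain and ATP synthase fell, between -1.29 and -2.59 with a median of -1.87, and the list took up 3.39, 3.83 and 4.69% of all reads uninjured and 1.61 and 1.36% injured. Cox7a1 and Cox8b are subunits of cytochrome oxidase used in heart and muscle. Cox7a1 read 12625, 12263 and 19261 uninjured and 3303 and 1733 injured (log2 change -2.59, SE 0.42, adjusted p = 0.00112). Cox8b read 7637, 13233 and 15574 uninjured and 2392 and 1700.2 injured (log2 change -2.53, SE 0.42, adjusted p = 0.00122). Atp5b, the catalytic beta subunit of ATP synthase and the most abundant, read 122102, 117467 and 143520 uninjured and 45102 and 43696 injured (log2 change -1.52, SE 0.33, adjusted p = 0.00558). The mitochondrial ribosome, which makes the subunits encoded in the organelle, fell in 27 of 28 genes with a median of -1.37. Mrpl42 read 2457, 3285 and 4006 uninjured and 1029 and 676 injured (log2 change -1.93, SE 0.31, adjusted p = 0.000977). Mrps28 had a change of -1.76 (SE 0.41, adjusted p = 0.00789), and Mrpl12, the most abundant, of -1.49 (SE 0.35, adjusted p = 0.00834). Shorter and longer members of the respiratory chain list had medians of -1.90 and -1.73.

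The counts of both lists were lower without mouse 2, while their medians stayed near the values above. Without injured library 2, 18 respiratory chain and 11 ribosome genes were called, with medians of -1.63 and -1.20. Without both regions of that mouse 7 and 4 were called, with medians of -1.66 and -1.26. No longer called were Atp5b, Mrps28 and Mrpl12 without injured library 2 (0.0534 to 0.103) and Atp5b, Mrps28 and Mrpl12 without both regions of mouse 2 (0.0579 to 0.11). With the length trend removed, Mrpl12 and Mrps28 were still called, at -0.93 and -1.01.

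Fatty acid oxidation fell in 19 of 25 genes and rose in 1, with a median of -1.73. Etfb, a subunit of the electron transfer flavoprotein, read 14719, 13863 and 18918 uninjured and 3583 and 2644 injured (log2 change -2.35, SE 0.37, adjusted p = 0.00103). Fabp3, the heart fatty-acid binding protein, read 34097, 25016 and 48158 uninjured and 9790.5 and 4905 injured (log2 change -2.32, SE 0.40, adjusted p = 0.00158). Every uninjured library was above both injured ones for either gene. Cpt1a, the isoform of the entry enzyme used outside muscle, rose, with 1236, 638 and 820.5 uninjured and 1890.3 and 1786 injured (log2 change 1.09, SE 0.38, adjusted p = 0.0452), while the muscle isoform Cpt1b did not pass at -0.97 (SE 0.44, adjusted p = 0.114). Cpt1a was not called by edgeR's quasi-likelihood test, without B6 injured library 2, without B6 uninjured library 1, without injured library 1, without injured library 2, without uninjured library 2, without uninjured library 3, without both regions of mouse 1 and without both regions of mouse 2.

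Glycolysis and glycogen genes fell in 17 of 26 and rose in 4, with a median of -1.02. Pgam2, the muscle phosphoglycerate mutase, read 13316, 15841 and 23792 uninjured and 4399.8 and 3188 injured (log2 change -2.19, SE 0.39, adjusted p = 0.00179). The widely expressed Pgam1 read 803, 586 and 929.7 uninjured and 1457 and 1708 injured (log2 change 1.05, SE 0.27, adjusted p = 0.0118). Hk3, the hexokinase of myeloid cells, read 47.5, 45 and 27.5 uninjured and 733 and 1354 injured (log2 change 4.64, SE 0.34, adjusted p = 1.56e-05), while the muscle hexokinase Hk2 changed by -1.27 (SE 0.33, adjusted p = 0.0124). The muscle glucose transporter Slc2a4 fell by 1.45 on the log2 scale, and the lactate exporter Slc16a3 (1.71) and the brain-type aldolase Aldoc (2.03) rose. Aldoa, the muscle aldolase and the most abundant, read 57416, 66069 and 75822 uninjured and 27174 and 24532 injured (log2 change -1.35, SE 0.32, adjusted p = 0.00779). The falls counted 11 without injured library 1 and without both regions of mouse 1 and 8 without injured library 2 and without both regions of mouse 2, the rises 2 without injured library 1 and without both regions of mouse 1 and 1 without injured library 2 and without both regions of mouse 2. Aldoa lost its call without injured library 2 (0.0734) and without both regions of mouse 2 (0.0957) and had a change of -0.79, still called, after quantile normalisation; that of Pgam2 was -1.44 with the length trend removed.

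Ketone, branched-chain amino acid and creatine genes fell in 18 of 23 and rose in 3, with a median of -1.15. Ckmt2, the mitochondrial creatine kinase of muscle, read 46565, 53639 and 79308 uninjured and 19997 and 13931 injured (log2 change -1.80, SE 0.40, adjusted p = 0.00562). The brain-type Ckb read 945, 566 and 1564 uninjured and 3022 and 3669 injured (log2 change 1.82, SE 0.36, adjusted p = 0.00304). Gatm, which makes the creatine precursor, read 236, 268 and 257 uninjured and 1435 and 1309 injured (log2 change 2.43, SE 0.25, adjusted p = 7.75e-05). Bcat1, the cytosolic branched-chain aminotransferase, read 79.2, 7.33 and 38.2 uninjured and 287 and 107 injured (log2 change 2.57, SE 0.82, adjusted p = 0.0322), while the mitochondrial Bcat2 changed by -1.34. The falls counted 11 without injured library 1 and 8 without both regions of mouse 2, and without both regions of mouse 2 the rises counted 1. Calls were lost for Ckmt2 and Bcat1 without injured library 2 (0.0585 to 0.0743), Ckmt2 and Bcat1 without both regions of mouse 2 (0.0683 to 0.0942), Bcat1 in a fit of the 5 C3H libraries alone (0.0838), Bcat1 without injured library 1 (0.228), Bcat1 without uninjured library 2 (0.0771), Bcat1 without uninjured library 3 (0.0542), Bcat1 without both regions of mouse 1 (0.0656) and Bcat1 with the length trend of each library removed (0.0786).

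Transcription factors that set mitochondrial and lipid metabolism fell in 8 of 20 and rose in 1. Rxrg, a retinoid X receptor, read 1313, 1458 and 1951 uninjured and 470.4 and 397 injured (log2 change -1.84, SE 0.23, adjusted p = 0.000247). Esrra, the oestrogen-related receptor alpha, read 3962, 2219 and 2959 uninjured and 1185 and 902 injured (log2 change -1.52, SE 0.25, adjusted p = 0.00112). The muscle regulator Perm1 (-1.48) and the mitochondrial factor Tfam (-1.23) fell as well, and the coactivator Ppargc1a did not pass at -0.86 (SE 0.34, adjusted p = 0.0703). Hif1a, the oxygen-regulated factor, rose, with 1809, 1617 and 1537 uninjured and 3223 and 3015 injured (log2 change 0.92, SE 0.18, adjusted p = 0.00325). Epas1, the related factor of vessels and most abundant member, overlapped, at 7735, 9023 and 6145 uninjured and 5774 and 8001 injured (log2 change -0.15, SE 0.36, adjusted p = 0.78). Without both regions of mouse 1 or of mouse 2 the falls counted 5, and without those of mouse 2 Hif1a was not called.

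Chaperones and secretion genes of the endoplasmic reticulum rose in 7 of 23 with none falling, where 15.7% of all members rose. Creb3l1, a stress factor that drives collagen secretion, read 342, 116 and 161 uninjured and 688 and 387 injured (log2 change 1.47, SE 0.42, adjusted p = 0.0197). The chaperone partner Sdf2l1 read 182, 149.71 and 194 uninjured and 466 and 460.0 injured (log2 change 1.41, SE 0.36, adjusted p = 0.0116). Hspa5, the main chaperone and the most abundant, overlapped, at 14199, 9082 and 11802 uninjured and 9696 and 7861 injured (log2 change -0.40, SE 0.30, adjusted p = 0.327). The number called was 3 in a fit of the 5 C3H libraries alone, without injured library 2, without uninjured library 2, without uninjured library 3 and without both regions of mouse 1, 12 with mouse as a fixed block, 11 with mouse as a random block, 1 without injured library 1 and 0 without both regions of mouse 2 (by limma, with 7 at an unadjusted p under 0.05 in that last setting). The test was missed by Creb3l1 in a fit of the 5 C3H libraries alone (0.066), Creb3l1 and Sdf2l1 without injured library 1 (0.0618 to 0.18), Creb3l1 without uninjured library 2 (0.0587), Creb3l1 without uninjured library 3 (0.0614), Creb3l1 and Sdf2l1 without both regions of mouse 2 (0.0657 to 0.132), Sdf2l1 without injured library 2 (0.075) and Sdf2l1 without both regions of mouse 1 (0.0782).

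Immediate early and AP-1 factors rose in 8 of 19, none fell, and the median was 0.82. Egr2, a zinc-finger factor of macrophages and nerve sheath, read 37.6, 6.28 and 22.2 uninjured and 292 and 336 injured (log2 change 4.07, SE 0.60, adjusted p = 0.000661). Fos (2.89), Fosb (3.20), Fosl2 (1.07), Batf (1.44) and Myc (1.64) rose with Atf3. The Jun genes did not pass: Jund, the most abundant, read 4276, 2986 and 5408 uninjured and 2920.2 and 2381 injured (log2 change -0.64, SE 0.33, adjusted p = 0.167), and Jun and Junb had changes of 0.15 and 0.76. In a fit of the 5 C3H libraries alone and without injured library 2, 5 rose. With mouse as a fixed or a random block 1 fell.

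Markers of other cell types moved as well, and their part in the results above was not tested. Fibroblast markers rose in 7 of 15 and fell in 2: the matrix products Col1a1, Col1a2, Col3a1, Lum and Mfap5, the protease Fap (2.08) and the growth factor receptor Pdgfra (1.00) rose, whereas Gsn, gelsolin, read 39347, 25432 and 34465 uninjured and 15256 and 14793 injured (log2 change -1.12, SE 0.28, adjusted p = 0.0107). Scara5, a ferritin receptor of quiescent fibroblasts, read 644, 1043 and 535 uninjured and 258 and 460.0 injured (log2 change -1.04, SE 0.34, adjusted p = 0.036). The fibroblast factor Tcf21 had a change of -0.28 (SE 0.40, adjusted p = 0.626). Fibroblast rises counted 4 in a fit of the 5 C3H libraries alone and without injured library 2 and 3 without injured library 1 and without both regions of mouse 2. Fibroblast falls counted 1 after quantile normalisation, in a fit of the 5 C3H libraries alone, without B6 injured library 2, without injured library 2 and without uninjured library 2 and 0 without injured library 1, without both regions of mouse 1 and without both regions of mouse 2; where they were 0, 1 without injured library 1, 1 without both regions of mouse 1 and 2 without both regions of mouse 2 fell by limma at an unadjusted p under 0.05. Of the 14 endothelial markers 5 fell and 0 rose: Fabp4 read 11009, 13072 and 22290 uninjured and 6241 and 5176 injured (log2 change -1.38, SE 0.37, adjusted p = 0.0158), and Egfl7, Emcn, Esam and Robo4 changed by -0.66 to -0.89, while Pecam1 (-0.22), Cdh5 (-0.11) and Vwf (0.39) did not pass. Endothelial falls counted 3 without B6 injured library 1, without B6 injured library 2, without uninjured library 1 and without both regions of mouse 1, 1 without injured library 1 and 0 without injured library 2, without uninjured library 3 and without both regions of mouse 2 (2, 5 and 1 by limma at an unadjusted p under 0.05 in these last 3 settings). Fabp4 lost its call without injured library 1 (0.0532), without injured library 2 (0.123), without uninjured library 3 (0.0591) and without both regions of mouse 2 (0.143).

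Of 12 mural markers Pdgfrb (1.24) and Cnn1 (1.66) rose and Kcnj8 (-1.24), Higd1b (-1.24) and Des (-0.95) fell, against 15.7% and 16% of all members that rose and fell. Des, desmin, which cardiomyocytes share, read 54524, 86992 and 69020.5 uninjured and 32648 and 39169 injured (log2 change -0.95, SE 0.30, adjusted p = 0.0339). Mural rises counted 4 with mouse as a fixed block and with mouse as a random block, 0 without injured library 1 and without both regions of mouse 1 and 1 without injured library 2, without uninjured library 2, without uninjured library 3 and without both regions of mouse 2; where they were 0, 2 without injured library 1 and 3 without both regions of mouse 1 rose by limma at an unadjusted p under 0.05. Mural falls counted 1 in a fit of the 5 C3H libraries alone, without B6 injured library 2, without injured library 2, without uninjured library 3 and without both regions of mouse 2. Schwann cell markers that rose were Ncam1 (2.59), Mbp (1.30) and Pmp22, which read 1204, 1399 and 1878 uninjured and 2084 and 2842 injured (log2 change 0.73, SE 0.24, adjusted p = 0.0387), while the defining Sox10 had a change of -0.50. The Schwann cell rises counted 1 without injured library 1, without injured library 2, without uninjured library 1, without uninjured library 2, without both regions of mouse 1 and without both regions of mouse 2, and the falls 1 after quantile normalisation, with mouse as a random block and with the length trend of each library removed. Des lost its call after quantile normalisation (0.176), in a fit of the 5 C3H libraries alone (0.12), without B6 injured library 2 (0.0561), without injured library 1 (0.186), without injured library 2 (0.104), without uninjured library 2 (0.0854), without uninjured library 3 (0.0777), without both regions of mouse 1 (0.123) and without both regions of mouse 2 (0.16). Pmp22 lost its call in a fit of the 5 C3H libraries alone (0.0831), without B6 injured library 2 (0.0599), without injured library 1 (0.0513), without injured library 2 (0.302), without uninjured library 1 (0.103), without uninjured library 2 (0.0839), without both regions of mouse 1 (0.0995) and without both regions of mouse 2 (0.401).

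In the T and NK, B cell, neutrophil and lymphatic lists 1 marker each passed the test, of 9, 4, 8 and 6 members. Over all members 15.7% rose. Il7r, the interleukin-7 receptor, read 20.8, 26.2 and 12.4 uninjured and 962 and 1822 injured (log2 change 6.05, SE 0.45, adjusted p = 1.56e-05). The T-cell receptor component Cd3e, in contrast, had a change of 0.05 (SE 0.66, adjusted p = 0.96). Summed as normalised counts, all 9 T and NK markers read 592, 238 and 741 uninjured and 2200 and 2566 injured. Il7r alone made up 962 and 1822 of the injured sums. Cd22, a sialic-acid receptor of B cells, read 7.92, 6.28 and 6.22 uninjured and 234 and 389 injured (log2 change 5.29, SE 0.47, adjusted p = 3.46e-05), while Cd79a, of the B-cell receptor, had a change of 0.13 (SE 0.66, adjusted p = 0.898). Cd22 was under 10 in every uninjured library and met the minimum through the injured libraries only, so its rise is a description. Of 8 neutrophil markers Csf3r rose, at 43.6, 73.3 and 37.3 uninjured and 235 and 599.9 injured (log2 change 2.91, SE 0.46, adjusted p = 0.00103), and the 8 held 74, 1935 and 113 reads uninjured and 410 and 2354 injured, high in both regions of mouse 2. Pdpn, podoplanin, of lymphatic vessels and activated fibroblasts, read 343, 245 and 329 uninjured and 1825 and 1796 injured (log2 change 2.58, SE 0.33, adjusted p = 0.000297), and the lymphatic factor Prox1 had a change of -0.13. The numbers of T and NK, B cell, neutrophil and lymphatic markers that rose were each 1, and reached 4, 2, 2 and 4 with mouse as a random block.

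Markers of tissue from outside the ventricle wall were compared in the same way. By limma 0 of 11 epicardial and mesothelial, 0 of 8 skeletal muscle, 0 of 7 mast cell, 0 of 4 platelet and 0 of 3 lung markers passed, where 31.7% of all members did. Of these lists 0, 0, 1, 0 and 0 markers had an unadjusted p under 0.05 by limma. By edgeR none was called in these lists, and by DESeq2 1 mast cell marker was. Msln, mesothelin, read 746, 501 and 804 uninjured and 289.7 and 380.2 injured (log2 change -1.01, SE 0.98, adjusted p = 0.459) and was called as lower in a fit of the 5 C3H libraries alone (0.0408); Acta1, skeletal actin, read 25570.3, 13215 and 43133 uninjured and 25885 and 12356 injured (log2 change -0.45, SE 0.57, adjusted p = 0.575). Kit, of mast cells, read 188, 39.8 and 119.9 uninjured and 190.2 and 164 injured (log2 change 0.86, SE 0.51, adjusted p = 0.22) and was called as higher without uninjured library 1 (0.0476). Of the atrial markers Stard10 (-1.41) and Tbx5 (-1.31) fell and Dkk3 rose, and the defining Myl7 had 44 reads uninjured and 3 injured, a ratio of 12.2 (exact 95% interval 3.91 to 61.4) that did not pass the test (adjusted p = 0.168). Cidea, a lipid-droplet protein, read 521, 689 and 667 uninjured and 206 and 211 injured (log2 change -1.57, SE 0.29, adjusted p = 0.00224; -1.01 with the length trend removed, still called) and was the only adipocyte marker among the members. Alas2, the heme enzyme of red-cell precursors, read 270.3, 85.8 and 156 uninjured and 144 and 30.4 injured (log2 change -1.20, SE 0.59, adjusted p = 0.142) and was called as lower with mouse as a fixed block (0.00641), with mouse as a random block (0.035), without injured library 1 (0.0166) and without both regions of mouse 1 (0.0223). The cartilage markers Acan and Sox9 rose, Acan as a description only, while Col9a2, Col9a3 and Col11a2 had changes of 1.20, -0.06 and 0.07. Only 4 of the 12 osteoblast and osteocyte markers listed were members, of which Col1a1 and Runx2 rose and Alpl fell. Pf4, of platelets, and Lamp3, of lung epithelium, had changes of -0.46 (SE 0.43, adjusted p = 0.431) and -1.02 (SE 0.53, adjusted p = 0.161).

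Some of the most abundant members did not pass. Rn45s, the precursor of ribosomal RNA, read 298812, 68703 and 46949 uninjured and 25487 and 28418 injured (log2 change -1.88, SE 0.80, adjusted p = 0.0942), with uninjured mouse 1 far above every other library. It was called as lower by DESeq2 (0.0495), with mouse as a fixed block (0.0153) and with mouse as a random block (0.0273). Among members with a mean of at least 50, the largest differences between the injured libraries were in Ifi202b, Retnlg, S100a9 and Serpinb2. Ifi202b, an interferon-inducible DNA-binding protein, read 0, 102 and 0 uninjured and 0 and 326 injured. Retnlg, a resistin-like protein of neutrophils, read 2.97, 231 and 0.888 uninjured and 1.73 and 141 injured. Serpinb2, a plasminogen activator inhibitor of macrophages, read 171, 5.23 and 0 uninjured and 225 and 7.77 injured. The first 3 were high in both regions of mouse 2 and Serpinb2 in both regions of mouse 1, and none passed the test (0.373 to 0.942). Serpinb2 was called as higher without uninjured library 1 (4.16, adjusted p = 0.0286).

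The injury effect was larger in C3H than in B6 regions for a small share of genes. The interaction term passed in 231 of 14751 genes tested (1.57%), all of them called for injury in C3H. Of these, 221 rose in C3H and had the higher effect there. The other 10 fell in C3H, and their C3H effect was the more negative. Genes that rose in C3H had a median change of 1.76 there and of 0.56 in B6, and those that fell had -1.21 and -0.49; since they were chosen by their C3H values, these medians are a description. Pathway lists with the most such genes were lysosomal proteins (12 of 26), phagocyte receptors (7 of 24) and matrix proteases (6 of 23). Chemokines and integrins followed (5 of 28 and 5 of 24). By limma 0 of 25 sarcomere, 0 of 25 calcium and channel and 0 of 29 respiratory chain genes passed, where 1.57% of all genes did. With so low a share over all genes, these counts do not show that the strains were alike. The medians of these lists were -1.26, -1.05 and -1.87 in C3H and -0.55, -0.34 and -0.81 in B6. Spp1 differed between the strains by 6.56 (SE 0.79, adjusted p = 0.00394), Il1rn by 6.02 (SE 0.80, adjusted p = 0.00516) and Mmp12 by 6.08 (SE 1.08, adjusted p = 0.0172). In B6 regions Spp1 read 579, 1319 and 266 uninjured and 962, 1654 and 641 injured, and Mmp12 read 146, 18.7 and 30.6 and 57.9, 51.1 and 36.1, with overlapping groups. Without injured library 2 the interaction passed in 11 genes and without both regions of mouse 2 in 0 by limma (1172 at an unadjusted p under 0.05; the smallest adjusted p among the named genes was 0.0629), against 233 by edgeR and 722 by DESeq2 with all libraries, and 491 and 777 with mouse as a fixed and a random block.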

How the data were processed

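RNA of injured and uninjured heart regions was sequenced as total RNA. Per the submitters' processing notes the authors used TopHat2 2.0.11, HTSeq 0.6.1, DESeq and build mm9. The deposited signal values were gene read counts divided by 1 size factor per library: dividing each by its step gave whole reads for 100% of values (tolerance 1e-06). The members and gene lists were chosen with earlier results of these data known.

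Values were tested as log2(value + 1) with limma 3.58.1 in R 4.3.3, on 4 group means over all 11 libraries (7 residual degrees of freedom, trend in the prior), for genes of at least 10 in 2 of 11 libraries (14751). P-values were adjusted by Benjamini-Hochberg and called under 0.05. A log2 change understates the change of low genes. Recovered reads were also tested with edgeR 4.0.16 and DESeq2 1.42.0. No source used here gives strand use or multi-mapping, so overlapping genes and near-identical copies are uncertain. Depth was 9699985 to 22138459 reads per library; counting intervals are exact and cover counting error only.

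Named by rule were the 8 largest increases and 8 largest decreases among called genes with a mean of 50 or more and no overlap (without predicted genes, histones and small RNAs), each pathway list's most abundant gene and 2 largest changes, each marker list's most abundant gene, the 4 genes with a mean of 50 or more that differed most between the injured libraries and the 4 most abundant not called. Some genes that this rule picks are not reported here. Other genes named are examples from the lists, chosen after their values were seen. Regions of the same number share a mouse per the labels, and residuals of same-mouse pairs correlated at 0.305 and 0.575 in C3H and 0.276, -0.014 and 0.524 in B6. The groups share 2 mice in C3H, and p-values measure the spread between these samples. Of 909 gene symbols listed, 852 were found (3 by synonym) and 57 were not analysed here. Simulated data tested the fit for independent libraries only, without a mouse shared between regions and without a length trend.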

Additional observations from a re-analysis of the deposited data

Results flagged for a closer look

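For 28 of the genes named above the injury effect differed between the strains (limma, interaction term, adjusted p under 0.05). By the same test 1.57% of all genes passed. Most of the 28 were named for a large C3H change, which enters the difference itself, so that share is no baseline for them. Values are the C3H minus the B6 effect on the log2 scale. Among matrix and mineral-linked genes they were 6.56 for Spp1, 6.43 for Tnn, 5.36 for Col11a1 and 6.08 for Mmp12, with 4.16 for Adam8, 3.51 for Ctsk, 3.92 for Acp5 and 2.86 for Runx1. Among leukocyte receptors and signals they were 6.02 for Il1rn, 6.00 for Rgs1, 4.76 for Itgax, 4.53 for Il7r, 3.74 for Clec4e, 3.57 for Cx3cr1, 3.07 for Cd68 and 3.06 for C3ar1. Lysosomal and metal or lipid handling genes gave 4.74 for Gpnmb, 3.96 for Lgals3, 3.70 for Ctss, 3.46 for Slc11a1, 2.53 for Gla and 2.53 for Soat1, and the myeloid lysozyme Lyz2 gave 2.51. The remaining genes gave 5.43 for Stra6l, 4.77 for Hk3, 2.85 for Atf3, 2.15 for Gatm and 2.02 for Pdpn. Without injured library 2 of C3H, 4 of the 28 passed, and without both regions of C3H mouse 2, 0 did by limma, with a smallest adjusted p of 0.0629.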

How the results depend on the processing

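Of 3319 values of the 128 named genes under 26 alternatives, 3144 counted as kept, 126 lost the call and 48 gained it. A kept value stayed on its side of the threshold or had no adjusted p. Changes of direction were counted only where the gene was called in the main fit or in the alternative. Lrp6 reversed, to -0.48 (adjusted p = 0.0377) with the length trend of each library removed. That trend and the removal of both regions of a mouse were added after the data were seen. Of 98 called genes 65 were called under every alternative.

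The count of C3H calls (4502; 2233 up, 2269 down) ran from 1698 to 4990 when 1 library was left out, with 978 to 2463 up and 720 to 2527 down. It was 2813 (1409 and 1404) without mouse 1 and 1366 (869 and 497) without mouse 2. Quantile normalisation moved the median change of all genes tested from 0.01 to -0.11 and gave 2001 up and 2621 down. The count of strain differences (231) ran from 11 to 272 with 1 library left out. It was 0 without mouse 2 (1172 at an unadjusted p under 0.05), 722 by DESeq2 and 430 with the length trend removed. The cause was not tested.

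With mouse as a fixed replicate block 5119 genes were called, 4221 of them shared with the 4502, and with mouse as a random block 6105. The blocks gave 491 and 777 strain differences. Of the named calls, the fixed block ended that of Myh6 (adjusted p = 0.055) and the random block none.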
